A study of Mus musculus with 12 samples.

Results

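The chromatin of a Kmt2d wild-type mouse melanoma line, line 971, was mapped with 4 peak lists, 1 each for the histone marks H3K4me1, H3K4me3, H3K27ac and H3K27me3. The map is the set of all peaks of these lists on the 19 autosomes and X, taken by chromosome, start and end. It holds 92335 of the 134015 peaks in the 8 lists of the series. The lists had 17373 H3K4me1, 23154 H3K4me3, 26414 H3K27ac and 25394 H3K27me3 peaks, each from 1 ChIP-seq library. Per the labels, H3K27ac had an input control of its own, and the other 3 marks shared another input. ChIP-seq sequences the DNA that an antibody against a mark pulls down, and a peak is a stretch where that DNA exceeds a control. The series sets line 971 beside line 493, a Kmt2d mutant melanoma line, to ask what loss of KMT2D does to the epigenome, and only line 971 is described here. The labels give serum-fed DMEM/F12 cultures of melanoma cells with no drug or other agent. The sources used here do not say the strain, the age, the tumour of origin, other tumour mutations or whether the line is 1 clone.

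The marks sit on the tail of histone H3 and differ in what they are known to accompany. H3K4me3 is placed by SET1 and MLL complexes at promoters with many CpG sites. H3K4me1 is placed largely by KMT2C and KMT2D at enhancers, and H3K27ac, placed by the acetyltransferases EP300 and CREBBP, marks the active ones and active promoters. H3K27me3 is placed by the EZH1 or EZH2 subunit of Polycomb repressive complex PRC2 over silent developmental genes. Acetylation and trimethylation cannot sit on the same lysine 27, while H3K4me3 and H3K27me3 together define the chromatin called bivalent. In melanoma, pigment-cell genes and genes of an undifferentiated, neural crest-like state are the best known contrast between tumour cell states.

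Promoters of 4 genes show the main combinations, and their sequences are printed to let the mark be read beside the base composition. Each is the 150 bases before the gene start, 5′ to 3′ along the gene, from RefSeq on GRCm38.p6, the assembly that mm10 is built from, with every CG dinucleotide in capitals. Cdkn2c encodes a cyclin-dependent kinase inhibitor (chr4:109666757-109666906, minus strand), Isl1 a LIM homeodomain factor of motor neurons and heart (chr13:116309689-116309838, minus strand), Otx2 a homeodomain factor of the forebrain (chr14:48667645-48667794, minus strand) and Dct the pigment enzyme dopachrome tautomerase (chr14:118052247-118052396, minus strand).
Cdkn2c, H3K4me3 with H3K27ac: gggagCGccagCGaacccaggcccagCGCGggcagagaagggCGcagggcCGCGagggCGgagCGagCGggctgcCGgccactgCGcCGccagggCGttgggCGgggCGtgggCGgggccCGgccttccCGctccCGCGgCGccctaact
Isl1, H3K4me3 with H3K27me3: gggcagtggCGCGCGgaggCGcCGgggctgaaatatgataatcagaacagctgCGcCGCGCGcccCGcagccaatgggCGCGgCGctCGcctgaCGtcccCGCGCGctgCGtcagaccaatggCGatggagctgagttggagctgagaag
Otx2, H3K27me3 without H3K4me3: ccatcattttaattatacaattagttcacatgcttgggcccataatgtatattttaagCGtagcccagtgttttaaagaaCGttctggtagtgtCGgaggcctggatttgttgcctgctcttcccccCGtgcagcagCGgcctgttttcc
Dct, no mark: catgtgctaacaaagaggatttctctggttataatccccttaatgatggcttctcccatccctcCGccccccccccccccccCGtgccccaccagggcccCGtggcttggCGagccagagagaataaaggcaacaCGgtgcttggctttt
The stretch held 22 CG in Cdkn2c, 20 in Isl1, 5 in Otx2 and 5 in Dct. All 150 bases lay under H3K4me3 in Cdkn2c and Isl1, and 10 bases of the Isl1 stretch also lay under H3K27me3. In Otx2 the stretch fell in a gap between H3K27me3 peaks, and in Dct no mark touched it.

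Around the start of Cdkn2c an H3K4me3 peak of 9.768 kb ran from before the start to beyond the gene's other end, with 3 H3K27ac peaks inside it. The Isl1 start lay in an H3K4me3 peak of 1.317 kb, which held an H3K27me3 peak of 0.639 kb and adjoined another of 1.112 kb on the side of the gene body. At the other end of Isl1 an H3K4me3 peak of 1.514 kb lay inside an H3K27me3 peak of 6.064 kb. Otx2 had H3K27me3 peaks of 7.758 kb, 5.597 kb and 3.043 kb at its ends and none of the other marks within 5 kb of its ends. Igfbp6, which encodes a secreted protein that binds insulin-like growth factors, was 1 of 32 protein-coding genes (0.148%) with H3K4me1 and H3K27ac as the only marks at their ends. Its start lay in an H3K4me1 peak of 1.454 kb holding H3K27ac peaks of 0.088 kb and 0.187 kb.

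**Figure D1:**
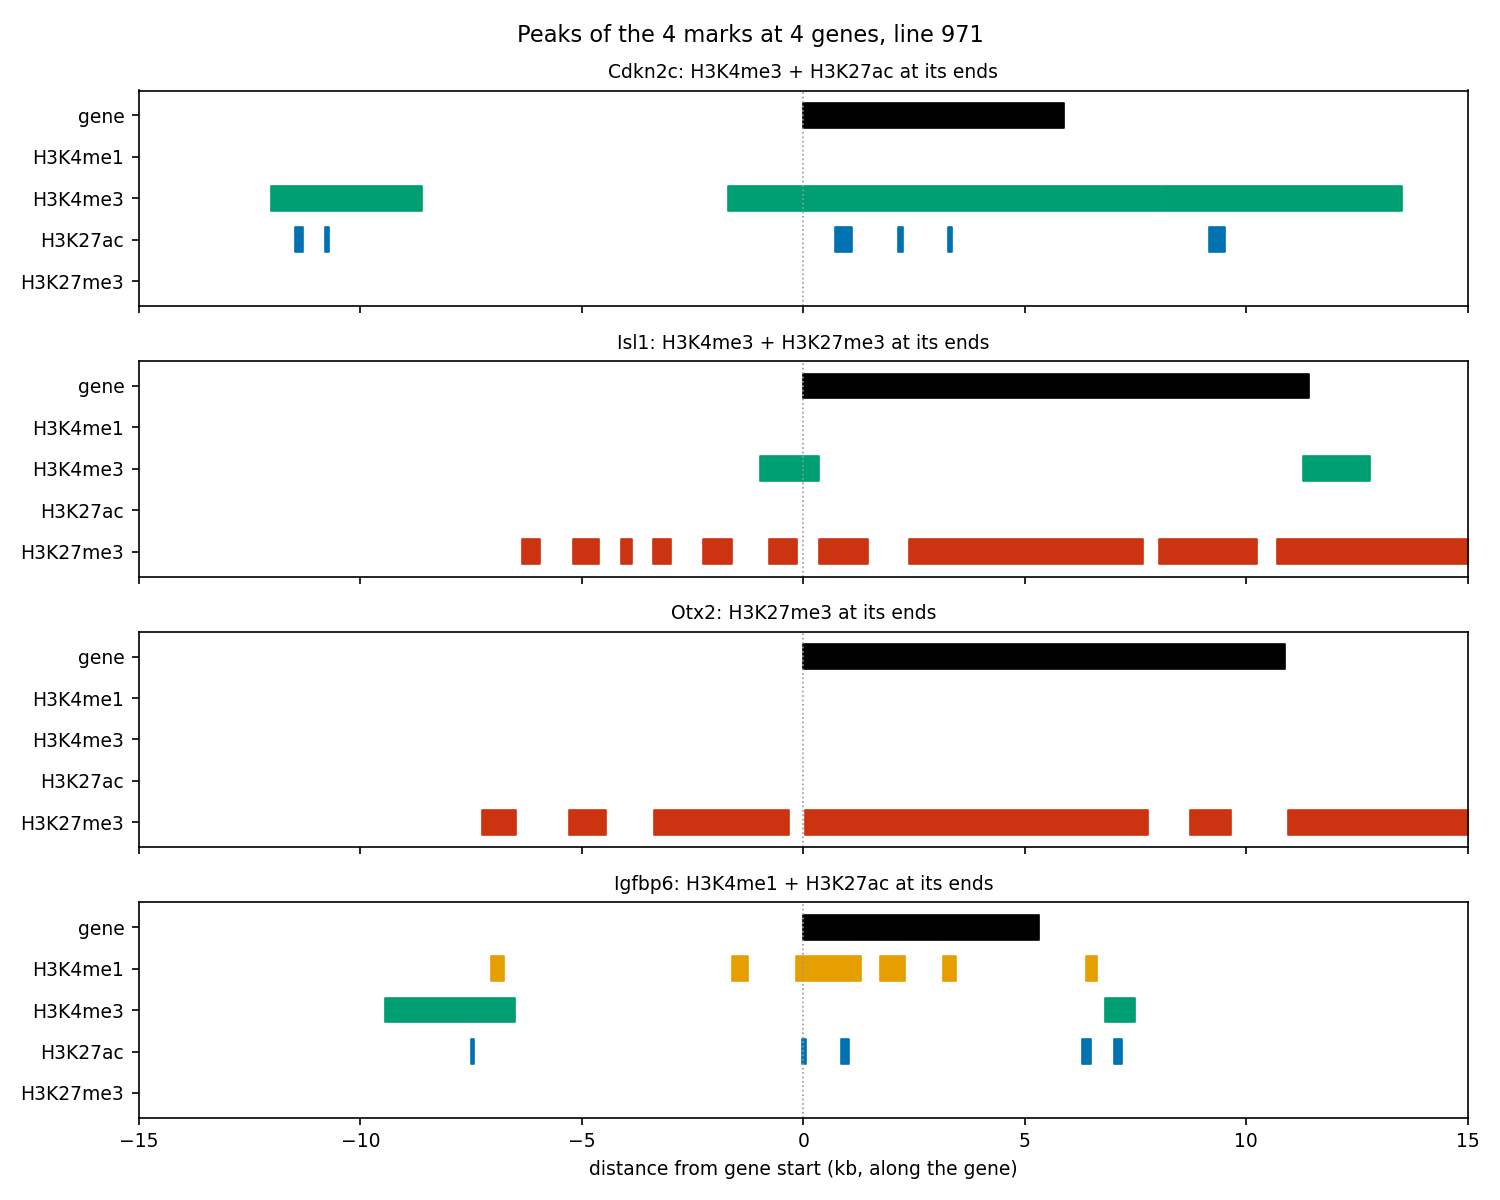
Peaks of the 4 marks (coloured bars, 1 row per mark) within 15 kb of the start of 4 genes, by distance from the start in kb along the gene, with the gene as a black bar. Long H3K4me3 with short H3K27ac peaks covers Cdkn2c, short H3K4me3 sits among H3K27me3 peaks at Isl1, H3K27me3 stands alone at Otx2, and H3K4me1 with H3K27ac covers the Igfbp6 start.

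The lists differed in shape before any comparison. H3K4me3 peaks had a median width of 1609 bp and covered 46.7 Mb in all. H3K27me3 peaks had a median of 455.5 bp, reached 25.364 kb and covered 18.9 Mb. H3K4me1 peaks had a median of 424 bp and covered 9.44 Mb, and H3K27ac peaks a median of 116 bp and 3.62 Mb, with 27.2% of them at the smallest width of 88 bp. Median fold enrichment over the control, as the authors deposited it, was 4.61 for H3K4me1, 5.25 for H3K27ac and 4.27 for H3K27me3, and the H3K4me3 list gives no fold. File formats and thresholds also differed between lists, so a share that looks from mark A to mark B cannot be set against the reverse share as a strength. A place without a peak did not pass the authors' threshold, which does not show that the mark was absent there. With 1 library per mark there was no test and no replicate error. Shares are given with 95% Wilson intervals that cover counting error only and treat peaks as independent, which neighbours are not.

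Place relative to genes separated the marks. A peak was at a gene end when it lay within 1 kb of either end of a RefSeq protein-coding or lncRNA gene, and elsewhere otherwise. Elsewhere, also called distal, can thus include starts inside a gene model. Of 17274 known RefSeq starts, 15425 lay within 1 kb of a gene end. For H3K4me3, 55.7% of peaks were at gene ends (12908 peaks, interval 55.1% to 56.4%). For H3K27ac it was 30.5% (interval 29.9% to 31.0%), for H3K27me3 17.2% (16.7% to 17.7%) and for H3K4me1 9.93% (9.49% to 10.4%). Most H3K4me1, H3K27ac and H3K27me3 peaks were thus away from gene ends. The gene-end windows covered just 123.1 Mb, and the shares were not set against their part of the genome. They do not show that a mark avoids gene ends.

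Joining overlapping peaks of any mark gave 73591 regions, 18401 at gene ends and 55190 elsewhere. A single mark made up 81.9% of them, a pair 16.0%, 3 marks 2.06% (1514 regions) and all 4 marks just 2 regions. Among the paired regions H3K4me3 with H3K27ac led with 7054, followed by H3K4me1 with H3K4me3 (1969), H3K4me1 with H3K27ac (1656) and H3K4me3 with H3K27me3 (1113). The triple H3K4me1, H3K4me3 and H3K27ac accounted for 1440 of the 1514 regions with 3 marks. H3K27me3 was the most separate mark, since 23951 regions held it alone.

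H3K27ac at gene ends lay inside H3K4me3. Of 8046 such H3K27ac peaks, 84.8% overlapped H3K4me3 (interval 84.0% to 85.6%), and a median of 100% of the overlapping peak was covered. Elsewhere the share was 23.4% of 18368 peaks (22.7% to 24.0%). In the other direction 47.5% of gene-end H3K4me3 peaks held H3K27ac, against 22.7% elsewhere. H3K4me1 overlapped 2.70% of the gene-end H3K27ac peaks and 11.7% of those elsewhere (11.2% to 12.2%). The share of distal H3K27ac peaks near H3K4me1 rose to 26.4% when a gap of 1 kb was allowed. Distal H3K4me1 peaks overlapped H3K27ac in 12.6% of cases (12.1% to 13.2%) and in 30.5% within 1 kb, but in 1.16% when the acetyl peaks had to cover 50% of the H3K4me1 peak. They overlapped H3K4me3 in 21.3% (20.7% to 22.0%). With each list limited to its more significant 50%, distal H3K4me1 overlapped H3K4me3 in 7.66% and H3K27ac in 8.37%.

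H3K27me3 rarely shared bases with H3K27ac or H3K4me1, and met H3K4me3 more often. Only 21 of 26414 H3K27ac peaks overlapped H3K27me3 (0.0795%, interval 0.0520% to 0.122%), and 86 lay within 1 kb of it. The share was 0.0518% with lists of equal length and 0.0379% within the more significant 50% of each list. H3K4me1 overlapped H3K27me3 in 14 of 17373 peaks (0.0806%). At gene ends 24.0% of 4363 H3K27me3 peaks overlapped H3K4me3 (22.7% to 25.3%), and elsewhere 1.84% of 21031 did (1.67% to 2.03%). Seen from H3K4me3, 7.27% of gene-end peaks (939) and 3.17% of the others met H3K27me3. Within the more significant 50% of each list the gene-end share of H3K27me3 peaks was 10.8%. In that setting 2.73% of gene-end H3K4me3 peaks (2.43% to 3.07%) and 3.55% of the others (2.77% to 4.55%) met H3K27me3. These intervals overlap, and the higher share at gene ends was not seen there. When 50% of the peak had to be covered the gene-end shares were 9.49% of H3K27me3 and 3.81% of H3K4me3 peaks, with 1.78% for H3K4me3 elsewhere. With gene ends reaching 2.5 kb, 15.9% of gene-end H3K27me3 peaks overlapped H3K4me3.

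**Figure D2:**
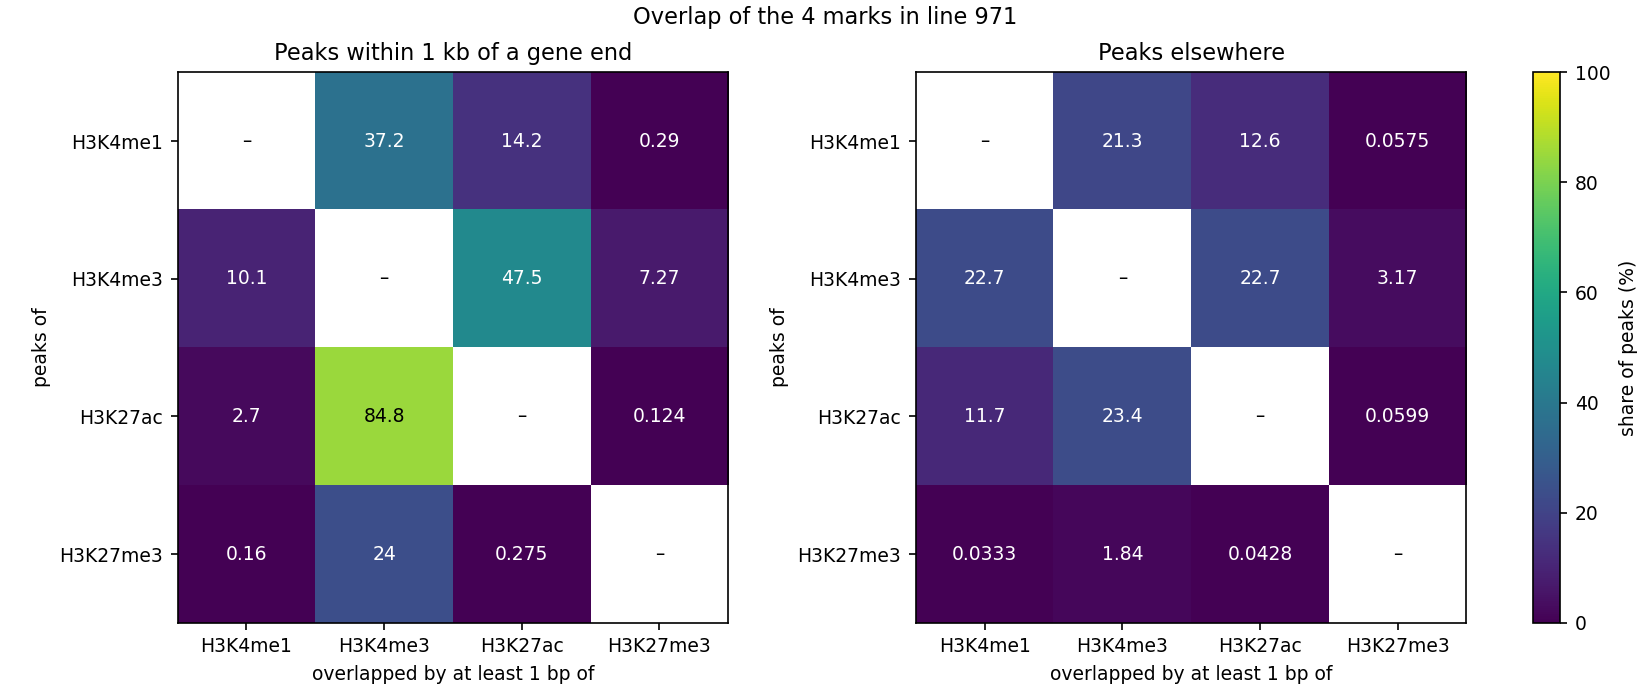
Share of the peaks of each mark (rows, in %) that were overlapped by at least 1 bp of each other mark (columns), for peaks within 1 kb of a gene end (left) and elsewhere (right). The highest value is 84.8% for gene-end H3K27ac with H3K4me3, and overlaps of H3K27me3 with H3K4me1 or H3K27ac reach at most 0.290% in either panel.

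Away from gene ends, H3K4me1 and H3K27ac lay kilobases from each other and far from H3K27me3. The median distance from a distal H3K4me1 peak was 3.708 kb to the nearest H3K27ac peak, 6.44 kb to H3K4me3 and 129.6 kb to H3K27me3. From a distal H3K27ac peak it was 12.6 kb to H3K4me3, 14.7 kb to H3K4me1 and 165.7 kb to H3K27me3. Around the summits of distal H3K27ac peaks, H3K4me1 covered 9.61% at the centre and 1.91% at 5 kb, and H3K4me3 fell from 22.6% to 4.69%. H3K27me3 did the opposite, with 0.0562% at the centre and 0.414% at 9.9 to 10 kb.

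Protein-coding genes were sorted by the marks within 1 kb of either end. H3K4me3 marked 12339 of 21631 genes (57%), H3K27ac 6291 (29.1%), H3K27me3 2176 (10.1%) and H3K4me1 921 (4.26%). No mark was present at 7787 genes (36%), H3K4me3 with H3K27ac alone at 5496 (25.4%), and H3K4me3 alone at 5025 (23.2%). H3K27me3 alone marked 1091 genes (5.04%), and H3K4me3 with H3K27me3 and nothing else marked 958 (4.43%). H3K4me1 with H3K4me3 and H3K27ac marked 401 genes (1.85%), H3K4me1 with H3K4me3 348 (1.61%), H3K27ac alone 261 (1.21%) and H3K4me1 alone 105 (0.485%). H3K4me3, H3K27ac and H3K27me3 together marked 85 genes (0.393%). The rarest were H3K4me1 with H3K4me3 and H3K27me3 (17 genes, 0.0786%), H3K4me1 with H3K27me3 (9 genes, 0.0416%), all 4 marks (also 9 genes, 0.0416%) and H3K27ac with H3K27me3 (7 genes, 0.0324%). With any further mark counted in, bivalent genes numbered 1069 (4.94%). Genes with H3K4me3 and H3K27ac but no H3K27me3, called active below as a label for the pair of marks, numbered 5897 (27.3%). Within the more significant 50% of each list, 334 genes were bivalent and 3782 active. Counted at the RefSeq start alone, for the 17274 genes with a start in the table, 659 genes were bivalent and 704 had H3K27me3 and no other mark.

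**Figure D3:**
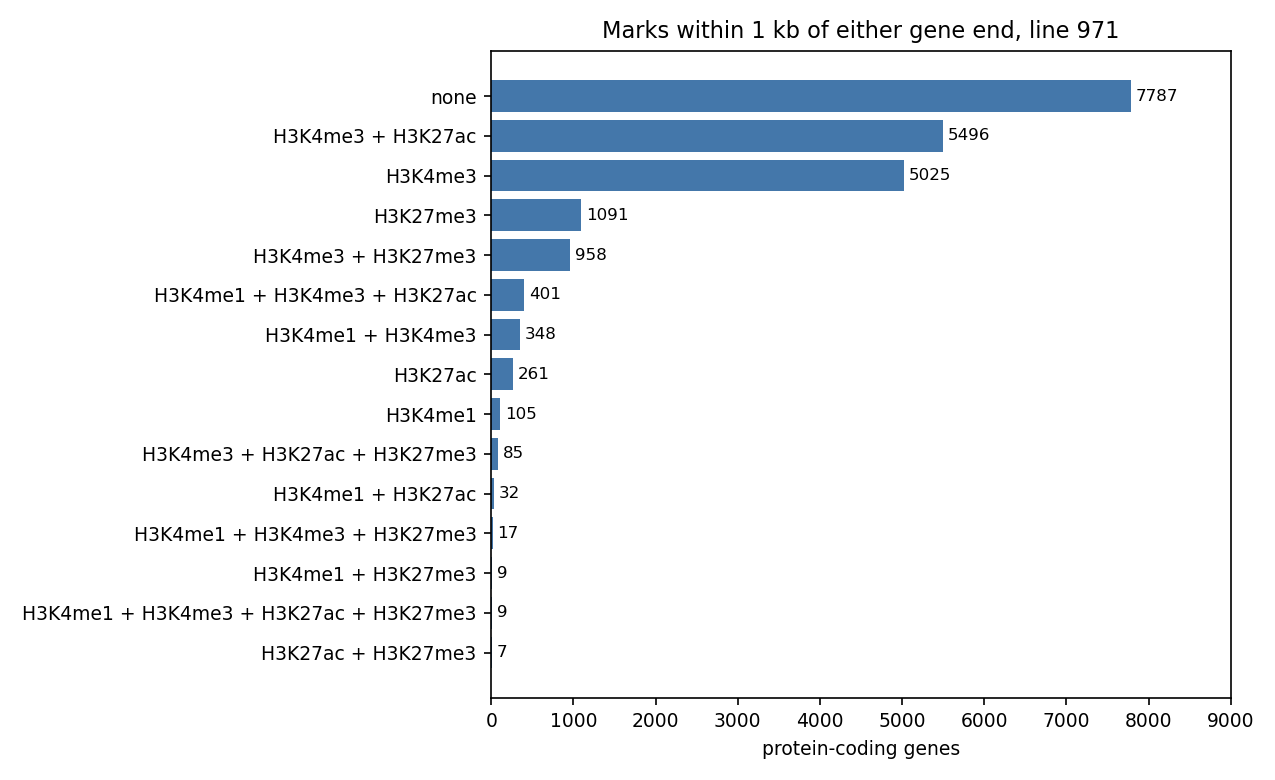
Number of protein-coding genes (bars, of 21631) with each combination of marks within 1 kb of either gene end. Genes without a mark, with H3K4me3 and H3K27ac, and with H3K4me3 alone are the most numerous, at 7787, 5496 and 5025.

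Kmt2d, the gene whose loss the series studies, carried H3K4me3 at both ends (chromosome 15, 98831669 to 98874077), 6.725 kb wide with a score of 3100 and 2.822 kb wide with a score of 2059. Its 0.38 kb of H3K27ac lay within 5 kb of the ends and not within 1 kb. Of the 30 measured genes for H3K4 and H3K27 enzymes and their partners, 27 had H3K4me3 (90%, against 57% of all genes) and 18 had H3K27ac (60%, against 29.1%), and none had H3K27me3 (against 10.1%). Ep300 had 4.809 kb of H3K4me3 and 0.586 kb of H3K27ac within 5 kb of its ends, and Crebbp 6.115 kb and 0.57 kb. Kdm6b, an H3K27 demethylase gene, had 9.569 kb of H3K4me3.

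Given 1 mark, the others were unevenly spread over genes. Of genes with H3K27ac, 95.2% also had H3K4me3 (94.7% to 95.7%), against 41.4% of genes without H3K27ac. Of genes with H3K27me3, 4.64% had H3K27ac (3.83% to 5.61%), against 31.8% of the rest. H3K4me3 was at 49.1% of genes with H3K27me3 (47.0% to 51.2%) and at 57.9% of those without it. H3K4me1 genes had H3K4me3 in 84.1% and H3K27ac in 48.0% of cases. H3K4me3 and H3K27ac were at the same gene end in 97.9% of the 5991 genes with both. For bivalent genes the 2 marks shared an end in 88.0% and had overlapping peaks in 77.6%, while in 128 genes they stood at opposite ends.

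H3K4me3, H3K27ac and H3K27me3 were more frequent at the start of the gene than at its other end. RefSeq starts were known for 17274 genes, and 15425 of the starts lay within 1 kb of a gene end. Among the 14014 of these genes longer than 4 kb, wherever the start lay, H3K4me3 was at 64.4% of starts and 6.66% of other ends. H3K27ac was at 33.2% and 3.13%, and H3K27me3 at 8.25% and 3.27%. H3K4me1 showed no such preference, with 2.18% at the start and 2.30% at the other end. H3K4me3 reached further into the gene than before it, covering 24.7% of positions 2 kb past the start and 8.05% of those 2 kb before it. H3K4me1 covered 0.167% at the start itself and at most 0.995%, 3.7 to 3.8 kb into the gene.

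At genes with H3K4me3 and H3K27ac and no other mark (4486 with a RefSeq start), H3K27ac flanked the start on both sides. In the 100 bp just before the start 3.86% of positions were acetylated, against 10.3% at 300 to 400 bp before it and 19.7% at 200 to 300 bp after it. At genes with H3K4me3 and H3K27me3, the H3K27me3 coverage was 37.9% at the start and 54.1% at 700 to 800 bp after it, while H3K4me3 reached 77.6% at 100 to 200 bp. At genes with H3K27me3 alone the values lay closer, with 39.0% at the start and at most 42.0%.

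**Figure D4:**
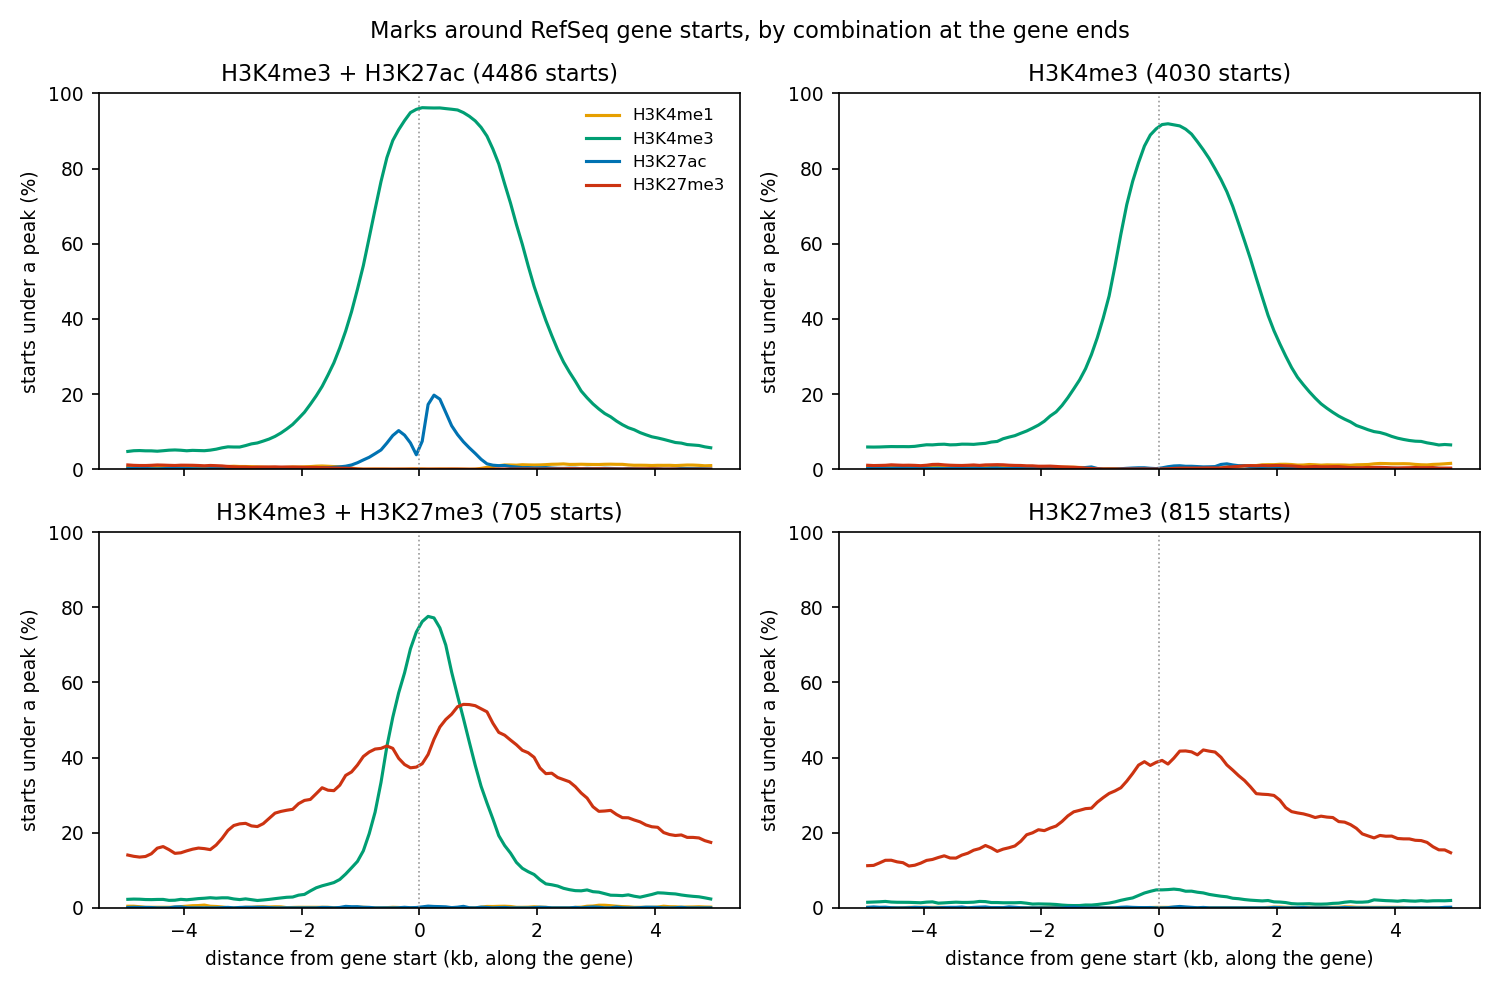
Share of gene starts under a peak (y axis, %) by distance from the RefSeq start (x axis, kb along the gene), 1 panel per combination at the gene ends and 1 line per mark. H3K27ac peaks on both sides of the start at genes with H3K4me3 and H3K27ac, reaching 19.7%, and H3K27me3 dips to 37.9% at the start of genes with H3K4me3 and H3K27me3.

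The width of a gene-end H3K4me3 peak went with its partner. Across 5 equal groups from narrow to wide, the share with H3K27ac was 12.2%, 34.8%, 55.2%, 62.3% and 72.9%. The share with H3K27me3 ran the other way, at 17.6%, 13.0%, 3.10%, 1.98% and 0.697%. Overlap with H3K4me1 was 7.90%, 4.07%, 5.97%, 8.99% and 23.4%, so the widest group stood apart. A wide peak has more bases in which an overlap can fall, and the part of this in the shares was not tested. Gene-end H3K4me3 peaks with H3K27ac alone had a median width of 2.92 kb, those with no partner 1.97 kb, those with H3K27me3 alone 1.32 kb, and those with both H3K4me1 and H3K27ac 4.04 kb. The authors' score, which grows as the p of a peak falls, had medians of 2988, 1385, 394.4 and 3100 in the same order, and 4626 peaks of the list were at 3100 or above.

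Cdkn1b, which encodes the cyclin-dependent kinase inhibitor KIP1, had the most H3K4me3 of the cell-cycle list, 13.492 kb within 5 kb of its ends, with a single peak of 12.626 kb. Nr2f2, a nuclear receptor of the undifferentiated melanoma state, had H3K4me3 peaks of 12.097 kb and 6.528 kb. Its H3K27ac peak of 0.148 kb lay at the end opposite the start. Axl, a receptor kinase of the same state, had an H3K4me3 peak of 10.909 kb at its start. Its other end had one of 4.922 kb and 2 H3K27ac peaks. Vim, which encodes the intermediate filament vimentin, lay whole in an 11.341 kb H3K4me3 peak. These H3K4me3 peaks of Cdkn1b, Nr2f2, Axl and Vim all had the score of 3100.

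At bivalent promoters H3K27me3 was somewhat less frequent at the centre of the H3K4me3 peak than toward its edges. Of the 939 gene-end H3K4me3 peaks that met H3K27me3, 244 were covered whole, 112 were entered from both edges, 471 from 1 edge, and 112 held H3K27me3 inside only. Around the centres of these peaks H3K27me3 covered 50.1%, and 58.1% at 600 to 700 bp. Longer H3K27me3 peaks, which also have more bases to be met, overlapped H3K4me3 more often. The share of gene-end H3K27me3 peaks with H3K4me3 was 11.9%, 13.2%, 19.95%, 27.4% and 47.5% from the shortest to the longest of 5 equal groups. Skor1, a transcriptional corepressor gene, had H3K4me3 peaks of 0.716 kb and 1.278 kb inside 1 H3K27me3 peak of 14.209 kb. Gfi1, a zinc-finger repressor of blood development, had a 2.859 kb H3K4me3 peak and H3K27me3 peaks of 9.788 kb and 2.266 kb. Foxa1, a pioneer factor of endoderm, had 4.052 kb of H3K4me3 and 13.88 kb of H3K27me3 within 5 kb of its ends.

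H3K27me3 peaks, as called, often lay in chains. Whether the gaps between them come from the calling threshold was not tested. With gaps of up to 5 kb allowed, 85.9% of gene-end and 80.5% of other H3K27me3 peaks had a neighbour of the same mark. The shares for the other marks ran from 32.4% to 58.7%. There were 322 chains of 10 or more H3K27me3 peaks, against 41 for H3K4me1, 12 for H3K4me3 and 2 for H3K27ac. The chains with the most covered bases were the 4 Hox clusters, which hold the homeodomain genes of body-axis patterning. The Hoxc chain had 57 peaks and covered 134.2 kb of 184.5 kb, the Hoxa chain 110.5 kb of 137.6 kb, the Hoxb chain 104.3 kb of 126.9 kb and the Hoxd chain 94.3 kb of 122.2 kb. The next chain by covered bases spanned 145.4 kb around Rhcg with 60.6 kb covered, and the one after it 85.7 kb around Foxa2, with 50.03 kb covered.

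All 39 Hox genes had H3K27me3 at their ends, against 10.1% of all genes, and none had H3K27ac or H3K4me1 there. They had 6.557 to 19.588 kb of H3K27me3 within 5 kb of their ends, with a median of 12.3 kb. H3K4me3 was present at 10 of the 39 (25.6%, against 57% of all genes), among them Hoxa3, Hoxb8, Hoxc9 and Hoxd13. Hoxa3 had a 25.364 kb H3K27me3 peak, the widest of the list, over a 1.639 kb H3K4me3 peak. Hoxd10 had H3K27me3 peaks of 10.674 kb and 6.096 kb and no H3K4me3.

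Of 58 other developmental regulators, 44 had H3K27me3 (75.9%, against 10.1% of all genes) and 36 had H3K4me3 (62.1%, near the 57% of all genes). Bivalent members numbered 25 (4.94% of all genes were bivalent), among them Pax6, Gata3, En2 and Pax2, and 19 had H3K27me3 without H3K4me3, among them Nkx2-5, Gata4 and Otx2. Pax2, a kidney and eye regulator, had 16.035 kb of H3K27me3 and 0.599 kb of H3K4me3 within 5 kb of its ends. Nkx2-5, a heart regulator, had 13.565 kb and 0.233 kb. Active members numbered 5 (27.3% of all genes were active), among them the T-box genes Tbx2, Tbx3 and Tbx18. Tbx3 had 7.33 kb of H3K4me3 and 0.502 kb of H3K27ac and no H3K27me3. Foxc2 and Foxc1, forkhead genes of mesenchyme, had H3K4me3 without H3K27ac or H3K27me3, with 8.252 kb and 4.705 kb of H3K4me3 within 5 kb of their ends.

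The pigment-cell list stood against the neural crest list. Of 20 melanocyte genes, 7 had H3K4me3 (35%, against 57% of all genes) and 11 had no mark (55%, against 36%). H3K27me3 was at 2 of them, Tyr and Sox10 (10%, near the 10.1% of all genes). The lists were chosen with earlier results known and these shares have no test. Without a mark within 1 kb were the pigment enzymes Dct and Tyrp1, the melanosome protein Mlana and the receptors Kit and Ednrb. Tyr, the rate-limiting enzyme of melanin synthesis, had an H3K27me3 peak of 2.812 kb. Sox10, the neural crest factor that maintains the melanocyte lineage, had H3K27me3 peaks of 5.984 kb and 2.053 kb at its ends and no H3K4me3, with 0.202 kb of H3K27ac within 5 kb of its ends, in peaks of 0.088 kb and 0.114 kb that lay inside these H3K27me3 peaks. Mitf, the master regulator of melanocytes, had an H3K4me3 peak of 1.94 kb (score 1745) with an H3K27ac peak of 0.088 kb. Both lay at the outer start of the Mitf gene model, and starts further inside the gene were not examined. Pax3 had H3K4me3 of 2.881 kb at the score of 3100 and Pmel a peak of 2.426 kb, both without H3K27ac. No RefSeq start was known here for Pax3 or Pmel, so these peaks are placed at a gene end only.

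Of 30 neural crest or undifferentiated-state genes, 28 had H3K4me3 (93.3%) and 16 had H3K27ac (53.3%, against 29.1%). Active members included Axl, Egfr, Nr2f1, Nr2f2, Zeb2, Twist1, Snai2, Sox2 and Cdh2. For Axl and Nr2f2 the H3K27ac within 1 kb of the gene ends lay at the end opposite the start. For the other active members, such as Sox2, the end that held it is not given here. Nr2f1 had a 6.359 kb H3K4me3 peak with H3K27ac peaks of 0.122 kb and 0.141 kb. The bivalent members were Cdh1, the epithelial cadherin, and Ngfr, the neurotrophin receptor. Cdh1 is also in the keratinocyte list and counts here among the 28 with H3K4me3. At Cdh1 a 1.611 kb H3K4me3 peak was overlapped at its edges by H3K27me3 peaks of 0.201 kb and 0.861 kb. At Ngfr an H3K27me3 peak of 1.148 kb lay inside an H3K4me3 peak of 1.77 kb. Tfap2a had no mark within 1 kb of its ends, with 3.725 kb of H3K4me3 within 5 kb. Foxd3, among the 16 with H3K27ac, had no H3K4me3 within 5 kb. Its H3K27ac peak of 0.111 kb lay at the end opposite the start.

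Markers of other cell types were read for the label melanoma cell. Of 12 fibroblast markers 8 had H3K4me3 (66.7%) and 3 had H3K27ac (25%), near the 57% and 29.1% of all genes. Among them Pdgfra, Prrx1 and Col3a1 had 5.179 kb, 5.004 kb and 6.745 kb of H3K4me3, while Dcn and Lum had no mark within 5 kb. Of 12 keratinocyte markers 8 had H3K27me3 (66.7%, against 10.1%), 5 of them with H3K4me3, and Krt5 and Trp63 had no mark within 5 kb. Of 10 endothelial markers 8 had no mark at their ends (80%, against 36%), Cdh5 and Cldn5 among them. Kdr had H3K4me3 at an end, and 2.261 kb of H3K27me3 within 5 kb. Of 10 immune markers 4 had no mark (40%, near the 36% of all genes), Ptprc among them. Cd3e and Itgam had H3K27me3, Csf1r had H3K4me1 and Cd74 had H3K27ac. Spi1 had an H3K4me3 peak of 0.678 kb (score 115.8) at 1 end, and 1.602 kb of H3K27me3 within 5 kb. Cd68 had H3K4me1, H3K4me3 and H3K27ac, with 6.083 kb of H3K4me3 within 5 kb. Several of these genes are used by mesenchymal tumour cells too, and whether other cells were in the culture was not tested.

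Lists of general cell functions were mostly H3K4me3-marked. All 24 MAPK pathway genes and targets had H3K4me3 (against 57% of all genes) and 15 had H3K27ac (62.5%, against 29.1%), among them the feedback genes Spry2 (9.933 kb of H3K4me3), Dusp4 (9.81 kb) and Dusp6 (9.37 kb). Of 84 cytosolic ribosomal protein genes 81 had H3K4me3 (96.4%) and 64 were active (76.2%, against 27.3% of all genes). Of 63 replication-dependent histone genes 57 had H3K4me3 and 18 had H3K27ac (28.6%, close to the 29.1% of all genes). Many histone genes lie within a few kb of each other and share peaks. Of 367 Zfp zinc-finger genes 294 had H3K4me3 (80.1%). Of 1106 olfactory receptor genes 1084 had no mark (98.0%), and 18 had H3K27me3 (1.63%). Of 25 cell-cycle genes and tumour suppressors 23 had H3K4me3 (92%, against 57% of all genes) and 11 had H3K27ac (44%, against 29.1%). H3K27me3 was at 2 (8%, near the 10.1% of all genes), the bivalent Cdkn1c and Mycn. No mark was at 2 (8%, against 36%), Cdkn2a and Cdkn2b, which had no peak of any mark within 5 kb. Against 57% and 29.1% of all genes, 80.8% and 42.3% of 26 collagen and matrix genes had H3K4me3 and H3K27ac. The shares were 83.3% and 37.5% of 24 glycolysis genes, and 91.7% and 62.5% of 24 housekeeping genes.

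Imprinted genes, expressed from 1 parental copy, had H3K27me3 at 8 of 23 (34.8%, against 10.1%). The growth factor gene Igf2 had 4.975 kb of it and no H3K4me3. Mest had a 3.553 kb H3K27me3 peak at its end and 2.905 kb of H3K4me3 within 5 kb. A peak list cannot tell the parental copies apart.

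**Figure D5:**
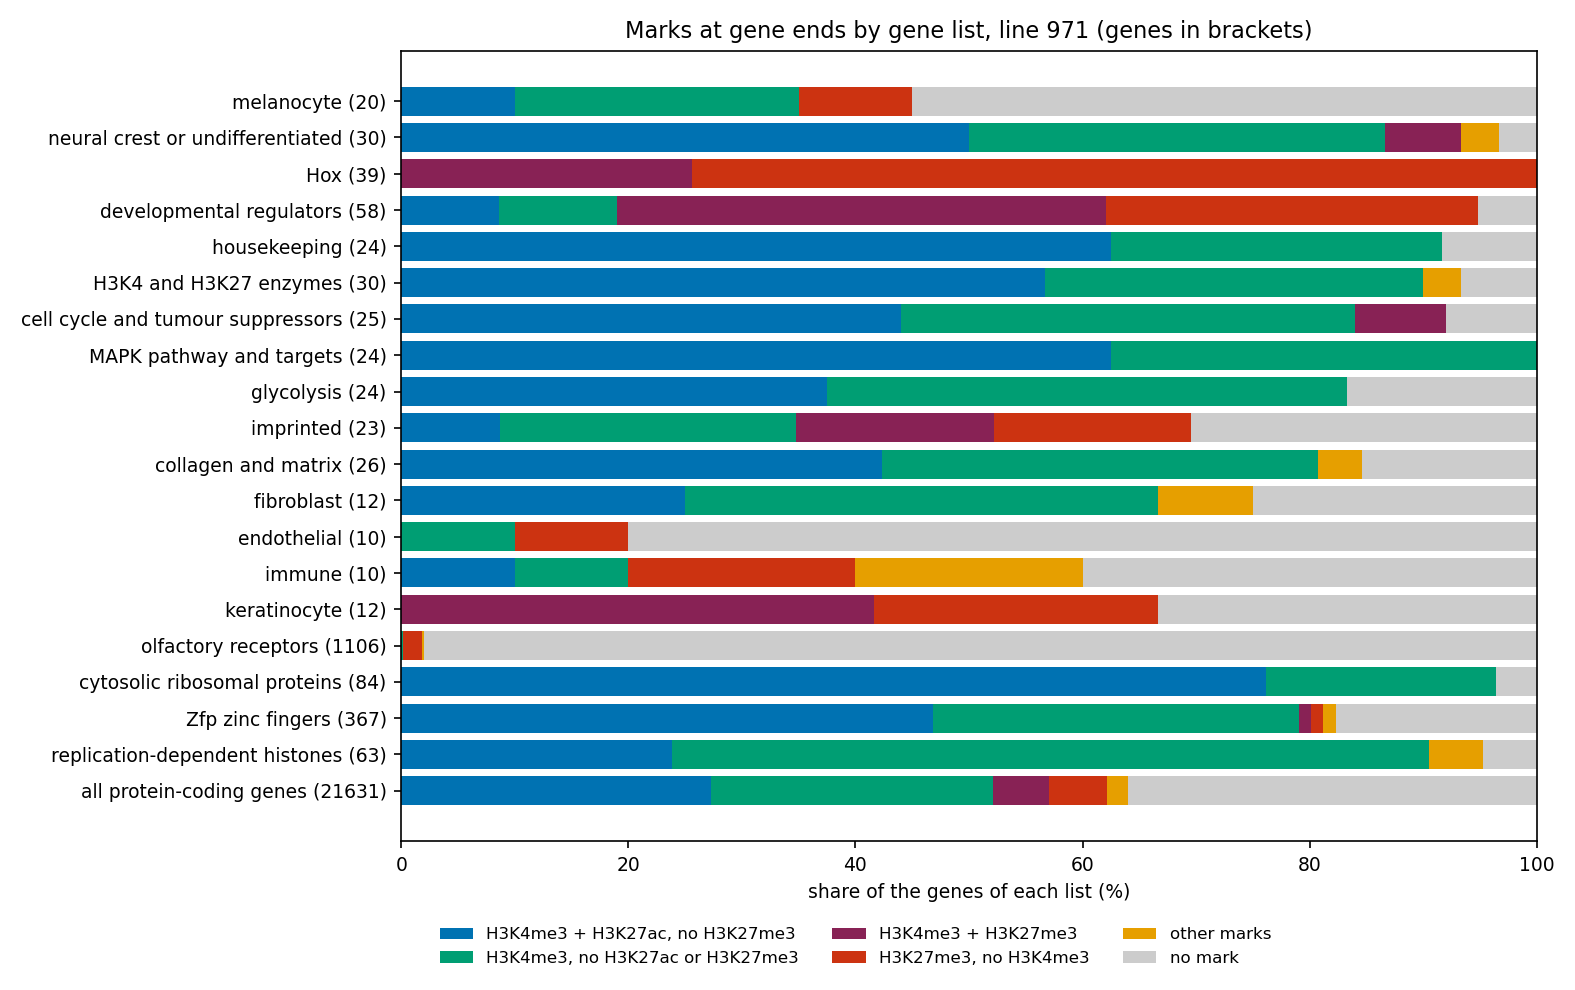
Share of the genes of each list (bars, %, number of genes in brackets) by the marks within 1 kb of their ends, with all protein-coding genes at the bottom. Hox genes are all in the H3K27me3 classes, olfactory receptors are 98.0% unmarked, and 76.2% of ribosomal protein genes have H3K4me3 with H3K27ac and no H3K27me3.

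Base composition separated the combinations, over the 300 bases from 250 before to 50 after the start of 17274 genes. The median number of CpG was 23 at genes with H3K4me3 and H3K27ac, 20 with H3K4me3 alone and 21 with H3K4me3 and H3K27me3. It was 7 with H3K27me3 alone, 8 with H3K27ac alone, 5 with H3K4me1 alone and 3 with no mark, against 14 over all genes. The Cdkn2c and Isl1 stretches printed above come from windows with 33 and 37 CpG, those of Otx2 and Dct from windows with 6 and 5. H3K4me3 marked 4.70% of genes with 0 or 1 CpG and 89.3% of genes with 20 or more. H3K27me3 without H3K4me3 was most frequent between these, at 8.26% of genes with 2 to 4 and 8.41% of genes with 5 to 9 CpG. Bivalent genes went from 0.432% at 0 or 1 CpG to 6.67% at 20 or more.

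Sequence motifs were searched in the same windows on both strands, and none of the motifs contains another. The ETS-factor motif CCGGAAGT was in 10.9% of windows of genes with H3K4me3 and H3K27ac, 7.12% with H3K4me3 alone, 1.56% with H3K4me3 and H3K27me3, 1.10% with H3K27me3 alone and 1.20% with no mark, against 5.35% of all. The windows with H3K4me3 and H3K27me3 thus held it less often than the other CpG-rich windows. TATAAA ran the other way, in 23.7% of unmarked, 14.97% of H3K27me3-only and 5.68% of H3K4me3 with H3K27ac windows, against 13.4% of all. CATGTG, the short core of the melanocyte M-box, was in 17.8% of unmarked and 7.42% of H3K4me3 with H3K27ac windows, against 11.6% of all. The Dct stretch above opens with it, and the longer M-box was not searched. Median GC was 47.3% in unmarked and 61.7% in H3K4me3 with H3K27ac windows. The part of base composition in the motif shares was not tested. The E-box CACGTG was in 7.99% of all windows, the AP-1 motif TGANTCA in 7.14%, the CRE motif TGACGTCA in 2.37% and CCAAT in 39.4%. A match is a description of letters and no evidence of binding.

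Micro-RNA genes fell into the same combinations, and those named were chosen after their peaks were seen. A miRNA is a short RNA that pairs with messenger RNAs through its seed, bases 2 to 8. Of 1005 hairpins in the RefSeq table, 198 had H3K4me3 within 1 kb (19.7%), 75 H3K27ac (7.46%), 44 H3K4me1 (4.38%) and 40 H3K27me3 (3.98%), and 740 had no mark. Mature sequences are printed with the seed in capitals, from RefSeq on GRCm38.p6, because members of 1 family lay in opposite chromatin or in the same.
mmu-let-7e-5p: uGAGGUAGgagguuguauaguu
mmu-let-7i-5p: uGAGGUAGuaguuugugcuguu
mmu-miR-9-5p: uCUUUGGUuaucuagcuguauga
mmu-miR-10a-5p: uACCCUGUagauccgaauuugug
mmu-miR-10b-5p: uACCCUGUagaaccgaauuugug
mmu-miR-196a-5p: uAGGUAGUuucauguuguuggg
mmu-miR-196b-5p: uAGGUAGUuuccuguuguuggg
mmu-miR-21a-5p: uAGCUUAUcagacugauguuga
The let-7 pair shares the seed GAGGUAG, the miR-10 pair ACCCUGU and the miR-196 pair AGGUAGU.

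The mature miR-9-5p comes from 3 hairpins, which had 3 different combinations. Mir9-2 (chromosome 13, 83738814 to 83738885) lay in an H3K4me3 peak of 14.65 kb with a score of 3100. Mir9-3 (chromosome 7, 79505264 to 79505353) lay in an H3K4me3 peak of 0.592 kb with a score of 75.2 and in an H3K27me3 peak of 1.22 kb. Mir9-1 had no mark within 1 kb. Mir10a and Mir10b, which lie in the Hoxb and Hoxd clusters, were inside H3K27me3 peaks of 17.0 kb and 8.33 kb. The miR-196 hairpins of the Hox clusters all had H3K27me3 within 1 kb, with Mir196a-2 inside a 7.31 kb and Mir196b inside a 2.38 kb peak. Of 11 let-7 hairpins, 5 had H3K4me3 within 1 kb, none had H3K27me3 and 5 had no mark. Mirlet7i and Mirlet7e, of the tumour-suppressive let-7 family, lay in H3K4me3 peaks of 6.81 kb and 6.78 kb. Mir21a, a miRNA abundant in many tumours, lay in one of 6.66 kb, with H3K27ac within 1 kb.

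Away from gene ends, the longest joined region was an H3K4me3 peak of 38.601 kb with 6 H3K27ac peaks and 1 H3K4me1 peak inside (chromosome 15, 85652592 to 85691192), outside any gene model and 43.7 kb from an end of Ppara. Inside Plec, which encodes the cytoskeletal linker plectin, an H3K4me3 peak of 22.398 kb held 5 H3K4me1 peaks. Inside Lmna, the gene of the nuclear lamins A and C, a 16.747 kb H3K4me3 peak held 3 H3K27ac peaks. Myh9, the gene of a non-muscle myosin heavy chain, named after its values were seen, held the H3K4me1 chain with the most covered bases, 16 peaks over 39.7 kb, together with 14 H3K4me3 peaks over 46.5 kb.

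Distal regions with H3K4me1 and H3K27ac and no H3K4me3, the usual signature of an active enhancer, numbered 1509 with a median length of 0.572 kb, and 10792 regions had H3K4me1 alone. The long ones included regions of 3.576 kb inside Zcchc24, 3.242 kb inside Fgf2 and 3.082 kb lying 40.3 kb from Ccnd1, the cyclin D1 gene. Ccnd1 itself had 12.094 kb of H3K4me3 within 5 kb of its ends. Distal H3K27ac alone made 12305 regions with a median length of 0.105 kb, the most numerous distal class after H3K27me3 alone (20639). The longest distal bivalent region, 14.031 kb, lay inside Gata4 (chromosome 14, 63239357 to 63253387), where a 0.897 kb H3K4me3 stretch stood within H3K27me3. Whether this region, or the distal H3K4me3 peaks inside Plec and Lmna, holds a start inside the gene model was not tested. Distal H3K27me3 regions of 10.378 kb, 9.245 kb and 9.025 kb lay in Nr2e1, near Foxa2 and in Nr5a1, genes of developmental transcription factors.

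The 4 marks did not fall evenly on the chromosomes. On X the H3K4me1 list had 19 peaks, 0.111 per Mb up to the last gene end, against 5.18 to 12.03 per Mb on the autosomes. None of 966 X-linked genes had H3K4me1 at an end, which allows a share of up to 0.396% (Wilson upper bound), against 4.46% of autosomal genes. H3K4me3 was at 38.3% of X-linked genes and at 45.9% to 66.0% of the genes of the single autosomes. H3K27ac was at 9.01% against 24.6% to 33.9%, and H3K27me3 at 2.07% against 4.71% to 15.9%. X was thus below all 19 autosomes for each mark. The peaks that were called on X had median folds near those of the autosomes, 5.15 against 5.25 for H3K27ac and 4.20 against 4.27 for H3K27me3. These medians hold only peaks above the threshold, so they cannot show the signal on the rest of X. Median widths on X were 264 bp against 424 bp for H3K4me1 and 1585 bp against 1611 bp for H3K4me3. For H3K27ac they were 107 bp against 116 bp, and for H3K27me3 360.5 bp against 457 bp. The labels do not give the number of X chromosomes in the line. Chromosome 11 had the most peaks per Mb for each mark, from 12.03 for H3K4me1 to 17.6 for H3K27me3.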

How the data were processed

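Peak lists of 4 histone marks in 1 Kmt2d wild-type mouse melanoma line were compared with each other, 1 list and 1 library per mark. Per the submitters' processing notes, the genome build is mm10, and the tools named, without versions, are MACS2, FastQC and MultiQC. For aligner, read filters and depth the sources used here give nothing, so no interval rests on reads. Per the file headers and layout, the H3K4me1, H3K27me3 and H3K27ac lists are in MACS2 format, with a fold enrichment (ratio) over the control and −log10 p and −log10 q values per peak, all deposited by the authors. The smallest deposited −log10 p was 5.01 for H3K4me1 and H3K27me3 and 3.86 for H3K27ac. The H3K4me3 list is in the older MACS layout, in which the deposited score was taken, from that layout, as a scaled negative log10 of p. The deposited score columns of the other lists were not used.

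Peaks on chromosomes 1 to 19 and X were kept, which left out 10 H3K4me3, 3 H3K27ac and 3 H3K27me3 peaks. Overlap meant at least 1 bp. Gene ends, 1 kb around either end, came from 34328 protein-coding and lncRNA RefSeq genes of GRCm38.p6 for peaks, and from 21631 protein-coding genes for gene states. Covered bases are those within 5 kb of the ends. Overlap code was tested on simulated data against base-by-base counts and on the peak lists against bedtools 2.31.1. Tables were made with Python 3.11.15 and pandas 2.3.3.

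Named genes were Kmt2d, the 5 genes with most covered bases per combination held by at least 20 genes, the 5 longest distal regions per combination with a gene end within 100 kb, and up to 4 members per list and combination, of which the text takes those of known role. Where a list is summarised by count, some members outside this rule are named to show its classes (among them Pax6, Gata3, Tyrp1, Mlana, Egfr, Zeb2, Twist1, Snai2, Sox2 and Cdh2), and these, the chains of peaks and the miRNAs were chosen after their values were seen. Motif counts for NRF1 were left out. The members and the 19 gene lists were chosen with earlier results of these data known. The alternatives were other overlaps, a gene-end distance of 2.5 kb, lists of equal length, the more significant 50% of each list and, added after seeing the data, RefSeq starts only. Some genes of the lists are not reported here by name.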

Additional observations from a re-analysis of the deposited data

How the results depend on the processing

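Of 55 alternative values, 18 stayed within the interval of the value reported (for gene counts within 1.5 times) and 37 moved, and the cause was not tested. Shares are in the order gene-end H3K27ac with H3K4me3, distal H3K27ac with H3K4me1, distal H3K4me1 with H3K27ac, distal H3K4me1 with H3K4me3, gene-end H3K4me3 with H3K27me3, distal H3K4me3 with H3K27me3, gene-end H3K27me3 with H3K4me3, and H3K27ac with H3K27me3. Within 1 kb they were 88.0%, 26.4%, 30.5%, 32.5%, 9.40%, 4.64%, 32.7% and 0.326%. With 50% of the peak's own length covered, those that moved were 9.72%, 1.16%, 16.3%, 3.81%, 1.78% and 9.49%, from the second share to the seventh. With a gene-end distance of 2.5 kb, the first, the second, the fourth, the sixth and the seventh were 77.4%, 12.2%, 18.9%, 2.28% and 15.9%. With lists of equal length, the second to sixth and the eighth were 13.2%, 9.06%, 14.5%, 6.07%, 3.86% and 0.0518%. Within the more significant 50% of each list, all moved, to 82.3%, 8.17%, 8.37%, 7.66%, 2.73%, 3.55%, 10.8% and 0.0379%. In that setting active genes numbered 3782 and bivalent genes 334. At RefSeq starts only, 659 genes were bivalent and 704 had H3K27me3 and no other mark, with fewer genes (17274) and 1 end each. No paired analysis was possible because there is 1 library per mark. Depth is unknown, so the share of missing overlap that comes from peaks below threshold cannot be given.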
